A study of Homo sapiens with 6 samples.

Results

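Respiratory complexes III and IV, with the factors that assemble them, were followed in MDA-MB-231 cells, an established line from an invasive breast cancer that lacks hormone receptors. Cells with a stable lentiviral short hairpin against ATAD3A supplied 3 Affymetrix U133 Plus arrays (knockdown), and cells with a GFP hairpin supplied the other 3 (control). Cells of both groups were puromycin-resistant after selection in 1.0 µg/ml for 2 weeks and were labelled as passage 2. The labels do not say whether a line was a pool or 1 clone, how many ATAD3A hairpins were used, or whether the replicates came from separate cultures. The p-values therefore cover the spread among these arrays alone, which may be technical. Members were the genes whose symbol begins with UQCR or UQCC or is COX followed by a digit, with 17 further named genes of the pathway. This gave 60 of the 19775 genes measured by a probe set with a single gene symbol.

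Complex III (the cytochrome bc1 complex) takes electrons from ubiquinol and passes them to cytochrome c, a small soluble protein. Complex IV (cytochrome c oxidase) takes them from cytochrome c and reduces oxygen to water, and both complexes pump or release protons across the inner mitochondrial membrane. Each is built from a few proteins encoded in mitochondrial DNA and many encoded in the nucleus, and assembly needs chaperones, heme a synthesis and copper delivery. ATAD3A is an ATPase anchored in that same membrane.

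All values are log2 expression values, a change is knockdown minus control, and an error is an SD over n = 3 arrays or an SE of the limma fit. Higher, lower, rose and fell are used for a limma adjusted p under 0.05, Benjamini-Hochberg adjusted over all 19775 genes. Array values ran from 0.83 to 16.58 with a low mode below 4.70, where 48.2% of genes lay and little signal is held. ATAD3A itself read 7.73, 7.78 and 7.80 in control and 7.41, 7.03 and 7.39 in knockdown. The difference was -0.49 ± 0.11 (SE; limma adjusted p = 0.0129), on a probe set whose type may cross-hybridise with its paralogs. It was -0.37 without knockdown replicate 2, and -0.77 relative to the median of its chromosomal neighbours. All arrays carried the cell line's markers VIM, CD44, AXL, CAV1, FOSL1 and EGFR above the low mode, with ESR1 and PGR inside it, and 4 of these 6 (FOSL1, CD44, AXL and CAV1) were lower, by -0.25 to -0.49. All 6 leukocyte markers measured had means in the low mode, with a summed linear level from 51.9 to 59.8 in control and from 41.9 to 44.1 in knockdown. Of 7 fibroblast markers 6 lay there too. COL1A1 was the exception, at 8.35 in control and 9.35 in knockdown, and the summed linear level of the fibroblast list ran from 345 to 406 in control and from 684 to 724 in knockdown. The part of these shifts in the results below was not tested.

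Of the 60 genes, 24 were higher and 10 lower in the knockdown arrays, and 26 were not called. Across all genes 33.6% were called, 19.7% higher and 13.9% lower, against 40.0% and 16.7% of the members. Since 52 members lay above the low mode, the closer background is the 10245 genes above it, of which 61.8% were called, 36.4% higher and 25.4% lower, against 46.2% and 19.2% of those 52 members. The total share of these members called, 65.4%, was thus near that background. Their median change was 0.079, beside 0.065 over all genes above the low mode, and the median size of a change was 0.25 beside 0.30. Of the 34 called genes, 23 moved by less than 1.5-fold and 1, COX7B2, by more than 2-fold. These counts were not set beside those of all called genes. The groups of arrays did not overlap for 38 of the 60 members, beside 42.0% of all genes. Above the low mode this held for 37 of the 52 members, or 71.2%, near the 71.8% of all genes there. The split between higher and lower depended on scaling. Array medians over genes fall near the boundary of the low mode, since 48.2% of gene means lay below it. With each array centred on its median, which shifts all changes by -0.10, 18 members were higher and 23 lower. Higher calls then made up 43.9% of the called members in place of 70.6%. Over all genes, centring gave 3196 higher and 9588 lower, in place of 3895 and 2749. After quantile normalization 23 members were higher and 12 lower, or 65.7% higher, beside 3377 and 3317 of all genes.

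**Figure D1:**
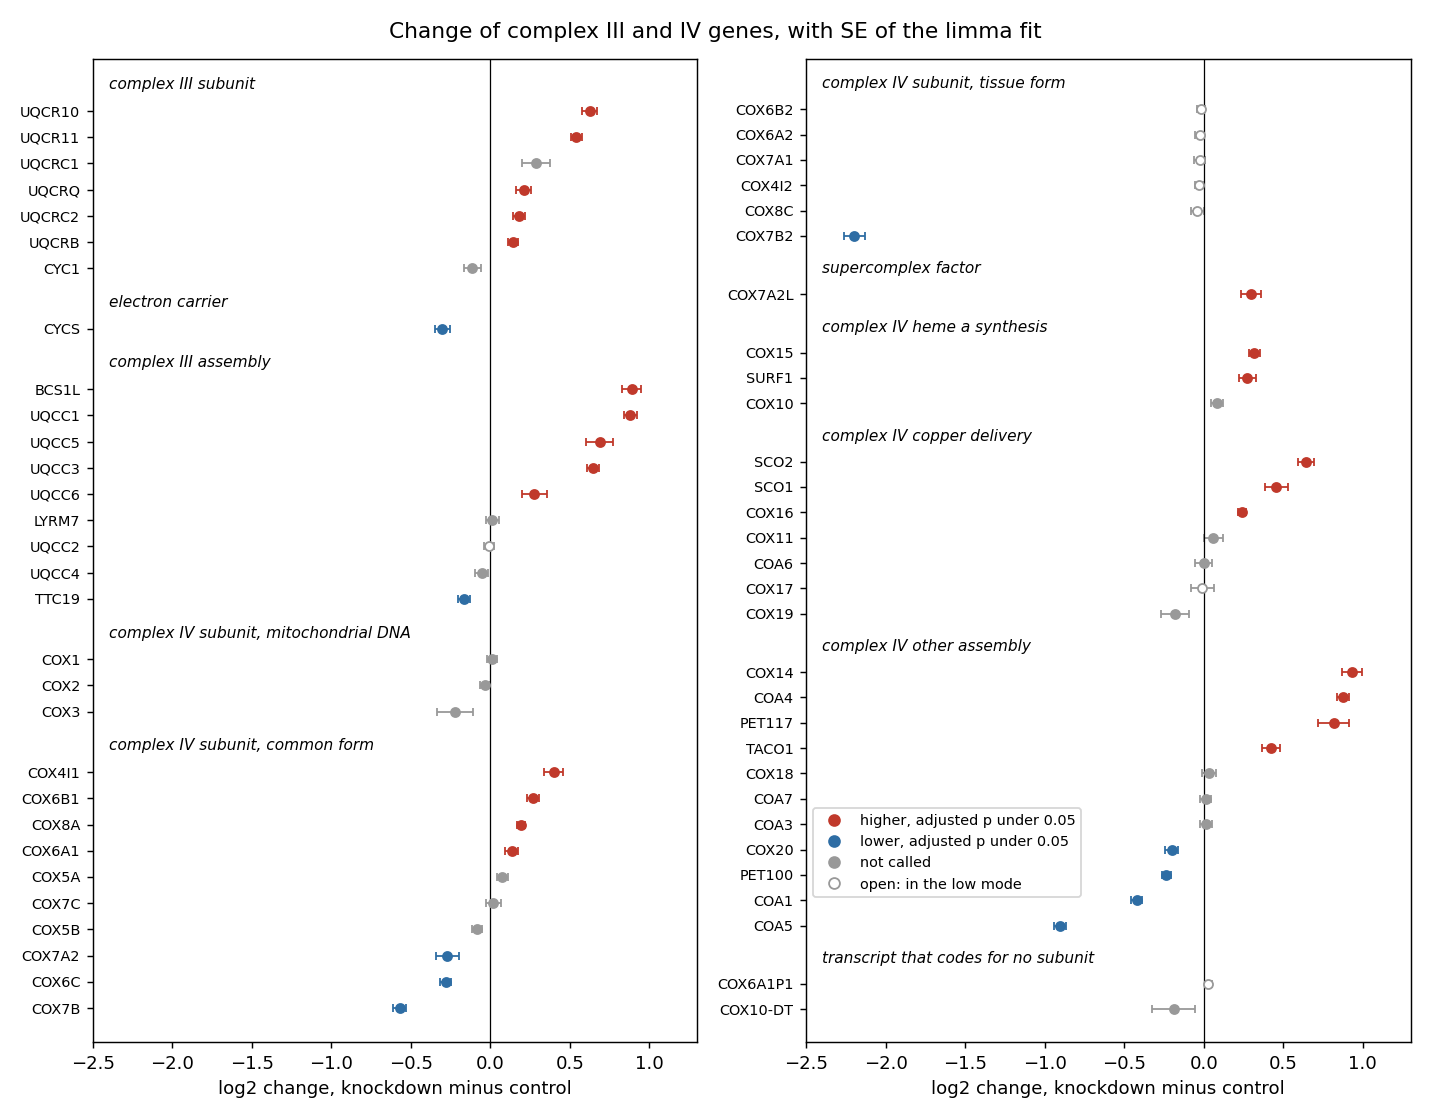
Log2 change (knockdown minus control, horizontal axis) of all 60 genes, grouped by role, with bars for the SE of the limma fit. Red points were higher, blue points lower and grey points not called at a limma adjusted p of 0.05, and open points lay in the low mode. Assembly factors of complex III and COX14, COA4 and PET117 stand farthest to the right, and COA5 and COX7B2 farthest to the left.

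The promoters of these genes are shown for 4 members that moved in different ways, because respiratory genes are classical targets of the transcription factors NRF1 and GABP, whose DNA-binding subunit is GABPA. Each sequence is the 250 bases before the gene's RefSeq start in GRCh38.p14, 5′ to 3′ on the gene's strand, and capitals mark matches on either strand to GCGCA and GCGC 1 base apart for NRF1, to CCGGAAG for GABPA or to AANATGGCG for YY1. UQCC1 (chr20:35411974-35412223, minus strand), an assembly factor that was higher, holds 2 NRF1 matches. It was taken because its window holds such a match, so these 2 are not an independent observation. COX6B1 (chr19:35648073-35648322, plus strand), a subunit that was higher, and COA1 (chr7:43729524-43729773, minus strand), an assembly factor that was lower, hold 1 GABPA match each. COX7B (chrX:77899218-77899467, plus strand), a subunit that was lower, holds no match to these letters. The promoters of UQCR10, COX14 and COX7B2, taken in the same way but not printed, hold none either.
UQCC1: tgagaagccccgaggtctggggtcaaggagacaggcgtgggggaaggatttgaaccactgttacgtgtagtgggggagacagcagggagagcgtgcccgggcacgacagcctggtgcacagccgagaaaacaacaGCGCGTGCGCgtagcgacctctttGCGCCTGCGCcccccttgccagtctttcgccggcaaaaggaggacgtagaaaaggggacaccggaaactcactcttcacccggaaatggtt
COX6B1: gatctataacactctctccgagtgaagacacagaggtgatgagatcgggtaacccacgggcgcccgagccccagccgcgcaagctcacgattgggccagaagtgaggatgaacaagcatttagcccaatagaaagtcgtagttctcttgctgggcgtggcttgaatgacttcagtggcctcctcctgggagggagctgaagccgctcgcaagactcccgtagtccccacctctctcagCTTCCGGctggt
COA1: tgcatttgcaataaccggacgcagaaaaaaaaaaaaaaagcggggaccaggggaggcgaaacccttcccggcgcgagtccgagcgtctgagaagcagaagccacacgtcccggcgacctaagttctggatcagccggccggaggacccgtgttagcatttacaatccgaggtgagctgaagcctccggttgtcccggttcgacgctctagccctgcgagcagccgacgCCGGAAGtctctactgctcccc
COX7B: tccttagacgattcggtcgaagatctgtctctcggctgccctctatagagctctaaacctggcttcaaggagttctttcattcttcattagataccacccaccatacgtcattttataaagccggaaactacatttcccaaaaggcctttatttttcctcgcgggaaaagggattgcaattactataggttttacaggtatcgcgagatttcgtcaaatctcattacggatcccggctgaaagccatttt
RefSeq promoters were matched for 48 of the 60 genes, with 55 promoters in all. The GABPA letters stood in 30.9% of these promoters and in 8.52% of all 35116 promoters of the same length. The NRF1 letters stood in 14.5% against 5.07%, and the YY1 letters in 5.45% against 1.38%. Among the 48 genes, the GABPA letters were found for 8 of 21 that were higher, 4 of 9 that were lower and 5 of 18 that were not called. The NRF1 letters were found for 3, 0 and 5 of these, counts too small to compare directions. The higher genes with NRF1 letters were UQCC1, UQCC5 and UQCR11. Uncalled genes with GABPA letters included COX17, which lay in the low mode, and COX10 with its divergent transcript COX10-DT. A match is a description of the letters, not evidence of binding.

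Complex III subunits moved upward where they were called. Of 7 measured, all above the low mode, 5 were higher and 0 lower (71.4% and 0%), with a median change of 0.21. Over all genes above the low mode 36.4% were higher and 25.4% lower, which is the background for this and the next groups. With so few genes per group, differences from that background were not tested. UQCR10, a small subunit beside cytochrome c1, read 12.91, 12.80 and 12.84 in control and 13.44, 13.54 and 13.43 in knockdown, a rise of 0.62 ± 0.047 (SE; limma adjusted p = 0.000156), or 54.0%. UQCR11, another small subunit, read 12.93, 12.84 and 12.88 against 13.40, 13.44 and 13.43, a rise of 0.54 ± 0.034 (SE; limma adjusted p = 8.09e-05). In both, every knockdown array lay above every control array, and a dimmer UQCR10 probe set rose by 0.42 (adjusted p = 0.042 over probe sets). The other higher subunits moved less: the ubiquinone-binding UQCRQ rose by 0.21 (limma adjusted p = 0.0163), the core protein UQCRC2 by 0.18 (adjusted p = 0.0115) and UQCRB by 0.14 (adjusted p = 0.0141).

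The core protein UQCRC1 read 9.82, 9.65 and 9.59 in control and 9.83, 10.07 and 10.02 in knockdown, a change of 0.29 that just missed the threshold (limma adjusted p = 0.0503). CYC1, cytochrome c1 itself, had a change of -0.11 (adjusted p = 0.166) with overlapping groups. The Rieske protein UQCRFS1 and mitochondrially encoded cytochrome b were not analysed here, and UQCRH had no probe set of its own symbol alone. UQCRQ was no longer called without control replicate 1 (adjusted p = 0.0526), control replicate 2 (0.0537) or knockdown replicate 3 (0.052), and the UQCRB call without control replicate 2 (0.0566) or knockdown replicate 3 (0.0502). Centring arrays on their medians ended the calls of UQCRQ, UQCRC2 and UQCRB, with changes of 0.11, 0.078 and 0.038. The mean of all probe sets of a gene in place of the brightest ended those of UQCRC2 (0.092) and UQCRB (0.084).

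CYCS, the electron carrier cytochrome c, which also triggers caspase activation when it leaves the mitochondrion, was lower. Its brightest probe set read 14.62, 14.67 and 14.67 in control and 14.45, 14.31 and 14.30 in knockdown. It thus changed by -0.30 ± 0.048 (SE; limma adjusted p = 0.00355). A dimmer CYCS probe set went from 7.23 to 6.42, or by -0.81 (adjusted p = 0.00157 over probe sets). Both thus fell, by different amounts.

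Factors that assemble complex III held some of the largest rises of the set. Of 9 measured, 5 were higher and 1 lower, with a median change of 0.28. Among the 8 above the low mode these were 62.5% and 12.5%, beside 36.4% and 25.4% of all genes there. BCS1L, the AAA ATPase that inserts the Rieske protein into complex III, read 8.76, 8.80 and 8.69 in control and 9.55, 9.75 and 9.62 in knockdown, a rise of 0.89 ± 0.061 (SE; limma adjusted p = 0.000109), or 85.0%. UQCC1, which with UQCC2 supports newly made cytochrome b, read 8.82, 8.77 and 8.82 against 9.62, 9.75 and 9.68, a rise of 0.88 ± 0.041 (SE; limma adjusted p = 2.57e-05). A dimmer UQCC1 probe set went the other way, by -0.49 (adjusted p = 0.00266 over probe sets). UQCC3, which stabilises an early cytochrome b intermediate, read 10.26, 10.30 and 10.19 against 10.88, 10.92 and 10.89, a rise of 0.64 ± 0.038 (SE; limma adjusted p = 6.08e-05). On the brightest probe set of each, the groups did not overlap.

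UQCC5, a small membrane protein needed for complex III assembly, read 8.07, 7.93 and 7.93 in control and 8.49, 8.73 and 8.77 in knockdown, a rise of 0.69 ± 0.085 (SE; limma adjusted p = 0.00126). UQCC6, the micropeptide also known as Brawnin, rose by 0.28 (limma adjusted p = 0.0381). UQCC6 was no longer called without control replicate 1 (adjusted p = 0.117), control replicate 3 (0.114), knockdown replicate 1 (0.109) or knockdown replicate 3 (0.108), after quantile normalization (0.115) or after centring (0.0638). TTC19, which clears fragments of the Rieske protein late in assembly, was the 1 lower factor. It read 11.37, 11.31 and 11.33 in control and 11.12, 11.16 and 11.22 in knockdown, a difference of -0.17 (limma adjusted p = 0.0164), a call lost without control replicate 1 (0.0551) or control replicate 3 (0.0507). LYRM7, the Rieske chaperone that acts before BCS1L, changed by 0.011 (adjusted p = 0.933), and UQCC4 by -0.056 (adjusted p = 0.445). UQCC2 lay in the low mode on the probe set of its symbol alone; a brighter one shared with another gene was not used.

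**Figure D2:**
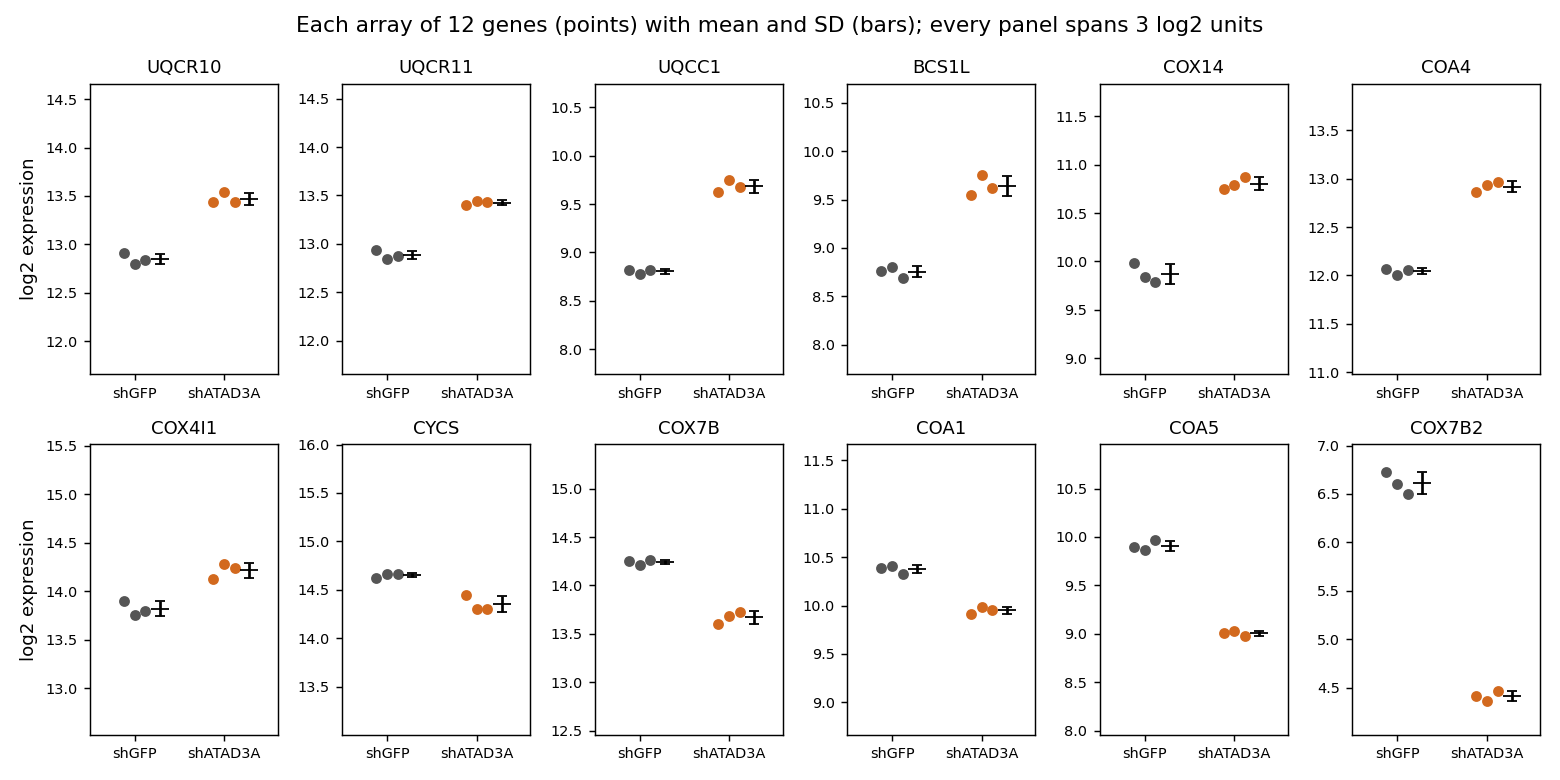
Log2 expression (vertical axis, 3 units in every panel) of 12 genes in each of the 3 shGFP and 3 shATAD3A arrays, with the mean and SD beside the points. In no panel do the groups overlap: UQCR10, UQCR11, UQCC1, BCS1L, COX14, COA4 and COX4I1 are higher in knockdown, and CYCS, COX7B, COA1, COA5 and COX7B2 lower.

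The catalytic core of complex IV, encoded in mitochondrial DNA, was called by limma in 0 of 3 genes, with 0 also at an unadjusted p of 0.05, and the groups overlapped in each. COX1, which holds heme a and copper, read 16.47, 16.41 and 16.42 in control and 16.42, 16.45 and 16.45 in knockdown. COX2, which takes electrons from cytochrome c, changed by -0.035 (adjusted p = 0.543). COX3 read 10.52, 10.86 and 10.48 against 10.49, 10.41 and 10.29, a change of -0.22 ± 0.11 (SE; limma adjusted p = 0.222). Of all 7 mitochondrially encoded proteins measured, 0 were higher and 2 lower (0% and 28.6%, beside 36.4% and 25.4% of all genes above the low mode). ATP6 of ATP synthase changed by -0.13 (adjusted p = 0.0338) and ND4 of complex I by -0.12 (adjusted p = 0.0147). COX1, COX2, ATP6 and ND4 all read near the top of the array's range, where differences may be compressed.

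The nuclear subunits of complex IV in their common forms went both ways: of 10, 4 were higher and 3 lower, with a median change of 0.047. These shares, 40.0% and 30.0%, stand beside 36.4% and 25.4% of all genes above the low mode. COX4I1, a regulatory subunit that binds ATP, read 13.90, 13.75 and 13.80 in control and 14.12, 14.28 and 14.24 in knockdown, a rise of 0.40 ± 0.058 (SE; limma adjusted p = 0.00261), or 31.7%. COX6B1, which faces the intermembrane space, rose by 0.27 (adjusted p = 0.00228), and COX8A by 0.19 (adjusted p = 0.00182). COX6A1 rose by 0.13 (limma adjusted p = 0.0489), a call near the threshold that was lost without any 1 of the control arrays (adjusted p of 0.0665, 0.153 and 0.145), without knockdown replicate 2 (0.132) and without knockdown replicate 3 (0.14).

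COX7B fell furthest among the common subunits. It read 14.25, 14.21 and 14.26 in control and 13.60, 13.69 and 13.73 in knockdown, which is -0.57 ± 0.042 (SE; limma adjusted p = 0.000145), or -32.7% on the linear scale. Its other probe set changed by -0.64 (adjusted p = 0.0154 over probe sets). COX6C read 14.56, 14.48 and 14.50 against 14.19, 14.25 and 14.25, a change of -0.28 ± 0.034 (SE; limma adjusted p = 0.00114). COX7A2 read 13.95, 14.10 and 14.01 against 13.88, 13.62 and 13.74, a difference of -0.27 (limma adjusted p = 0.0313), a call lost without control replicate 2 (0.0969), control replicate 3 (0.0808), knockdown replicate 2 (0.0647) or knockdown replicate 3 (0.0897). COX5A, COX5B and COX7C were not called, with changes of 0.075, -0.085 and 0.018. Both other COX7C probe sets above the low mode rose, by 0.22 and 0.10 (adjusted p = 0.00379 and 0.0398 over probe sets). These subunits occur together in the assembled enzyme, yet their transcripts differed in direction in the same arrays.

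Some complex IV subunits have a second gene used in heart, muscle, lung or testis. The tissue forms COX4I2, COX6A2, COX6B2, COX7A1 and COX8C lay in the low mode in both groups, with changes from -0.039 to -0.018. COX7B2, the testis form of COX7B, was above it in control arrays, at 6.73, 6.60 and 6.50, and below it in knockdown arrays, at 4.41, 4.37 and 4.46. Its change of -2.20 ± 0.064 (SE; limma adjusted p = 5.43e-06) was the largest of the set, and its size is imprecise because the knockdown level lies in the low mode. COX7B2 is measured by 1 probe set, so no second measurement bears on it. COX7A2L, a COX7A relative that joins complexes III and IV into supercomplexes, rose by 0.30 ± 0.064 (SE; limma adjusted p = 0.0135); centring the arrays ended that call (0.0535).

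Heme a, the prosthetic group peculiar to complex IV, is made by COX10 and COX15. COX15 read 8.81, 8.80 and 8.71 in control and 9.08, 9.11 and 9.08 in knockdown, a rise of 0.32 ± 0.035 (SE; limma adjusted p = 0.00079). SURF1, mutated in Leigh syndrome and linked to heme a insertion, rose by 0.27 (limma adjusted p = 0.0102), and COX10 changed by 0.083 (adjusted p = 0.202). The divergent transcript COX10-DT, which codes for no subunit, changed by -0.19 (adjusted p = 0.431), and the pseudogene COX6A1P1 lay in the low mode.

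Copper reaches complex IV through a relay in the intermembrane space. Of 7 genes in or beside this relay, 3 were higher and 0 lower, or 50% and 0% of the 6 above the low mode. Over all genes above the low mode 36.4% were higher and 25.4% lower, with 61.8% called in either direction. The relay thus held no larger share of called genes than that background, and the difference was not tested. SCO2 and SCO1, the metallochaperones of the COX2 copper site, rose by 0.64 ± 0.050 (SE; limma adjusted p = 0.000188) and 0.46 ± 0.072 (SE; limma adjusted p = 0.00365). SCO2 read 9.25, 9.19 and 9.27 in control and 9.81, 9.97 and 9.86 in knockdown, and SCO1 read 9.19, 8.95 and 9.06 against 9.43, 9.56 and 9.58. COX16, which acts with them on COX2, rose by 0.24 ± 0.025 (SE; limma adjusted p = 0.000566). COX11, which serves the COX1 copper site, changed by 0.059 (adjusted p = 0.609), COA6 by -0.00053 and COX19 by -0.18 (adjusted p = 0.21). COX17, the donor to this relay, lay in the low mode on the probe set of its symbol alone; a brighter one shared with another gene was not used.

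The remaining assembly factors of complex IV moved far in both directions: of 11, 4 were higher, 4 lower and 3 not called. The median size of a change was 0.42, beside 0.30 over all genes above the low mode. The share was 36.4% in each direction, beside 36.4% higher and 25.4% lower over those genes. COX14, which with COA3 holds newly made COX1, read 9.98, 9.84 and 9.78 in control and 10.74, 10.79 and 10.87 in knockdown, a rise of 0.93 ± 0.062 (SE; limma adjusted p = 9.51e-05), or 90.9%. COA3, its partner, read 12.61, 12.50 and 12.54 against 12.54, 12.58 and 12.57, a change of 0.012 (adjusted p = 0.917). The 2 partners of that complex thus gave different results on these probe sets.

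COA4, a twin cysteine-motif protein, read 12.07, 12.01 and 12.06 in control and 12.86, 12.93 and 12.97 in knockdown, a rise of 0.87 ± 0.038 (SE; limma adjusted p = 2.17e-05). PET117 read 10.25, 10.30 and 10.34 against 11.08, 10.95 and 11.32, a rise of 0.82 ± 0.096 (SE; limma adjusted p = 0.000999), with the widest spread in knockdown of these genes. TACO1, the translational activator of COX1, rose by 0.42 ± 0.057 (SE; limma adjusted p = 0.00184). The 4 higher genes of this group act at several steps, from translation to module assembly.

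COA5 was the largest fall among assembly factors. It read 9.89, 9.87 and 9.97 in control and 9.01, 9.03 and 8.98 in knockdown, which is -0.90 ± 0.036 (SE; limma adjusted p = 1.54e-05), and its other probe set changed by -0.76 (adjusted p = 0.000373 over probe sets). COA1, a complex IV assembly factor also linked to complex I, read 10.39, 10.41 and 10.33 against 9.91, 9.99 and 9.96, and changed by -0.42 ± 0.036 (SE; limma adjusted p = 0.000275). PET100 read 11.79, 11.78 and 11.78 against 11.51, 11.55 and 11.58, a change of -0.24 ± 0.029 (SE; limma adjusted p = 0.00111). COX20, the COX2 chaperone, read 10.90, 10.84 and 10.81 against 10.59, 10.69 and 10.66. It changed by -0.20 (limma adjusted p = 0.00981), and its other probe sets by -0.46 and -0.56 (adjusted p = 0.000957 and 0.0048 over probe sets). COX18, which exports the tail of COX2, and COA7 changed by 0.032 and 0.012 and were not called.

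Several genes had more than 1 probe set, and these did not always give the same change. Of the 34 called genes, 13 had another probe set above the low mode, 21 such probe sets in all, of which 17 had the same sign as the brightest, 13 of them also called. The 1 called in the opposite direction was the UQCC1 probe set at -0.49, which went from 7.40 in control to 6.91, while another, at 5.44, rose by 0.74 (adjusted p = 0.000642 over probe sets). For COA1, beside the brightest at -0.42, a dimmer one went from 6.60 in control to 4.31, or by -2.29 (adjusted p = 0.0013), which is in the low mode, and another at 7.10 changed by 0.039 (adjusted p = 0.945). The dimmer UQCR11 probe set rose by 1.41 (adjusted p = 7.52e-05), beyond the 0.54 of the brightest. For COX4I1 a bright probe set rose by 0.41 and a dim one changed by -0.11 (adjusted p = 0.255). When probe sets of type s_at or x_at were left out, the changes of UQCC1, COA1 and COX4I1 thus turned sign, to -0.49, 0.039 and -0.11. TACO1 was then left with a probe set in the low mode, at 2.15 in control and 2.12 in knockdown, which holds no usable level.

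**Figure D3:**
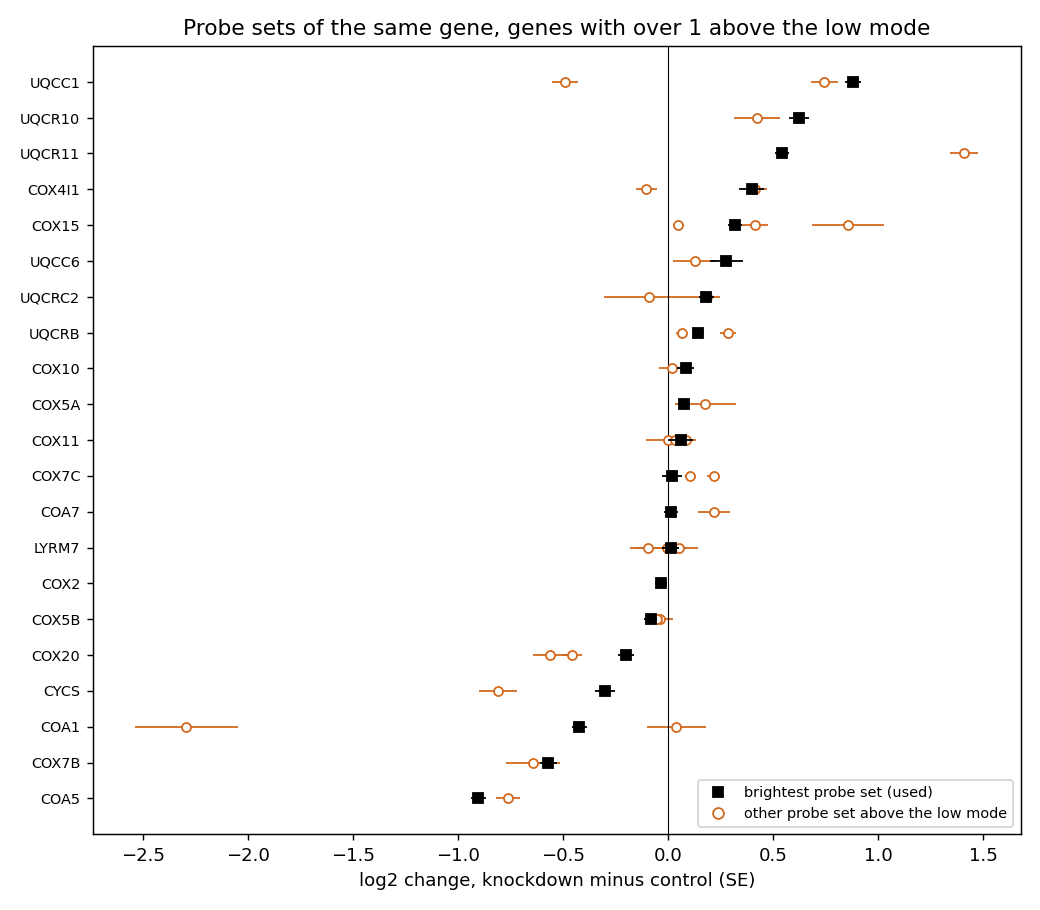
Log2 change (horizontal axis, with SE) of each probe set above the low mode, for the 21 genes with more than 1; black squares are the brightest probe set, used elsewhere, and open circles the others. UQCC1 and COA1 have probe sets on either side of 0 or near it, while those of COA5, COX20 and COX7B all lie to the left.

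Each member was set beside the median change of the 25 nearest genes above the low mode on either side along its chromosome. Of the 34 called genes, 29 (85.3%) had the same sign as this neighbour median, beside 71.8% of the 6331 called genes above the low mode that had one. The difference between these shares was not tested. UQCR11, with a change of 0.54, lay among genes with a median of 0.52, and COA1, with -0.42, among genes with -0.39. COX7B, with -0.57, lay among genes with -0.90, and CYCS, with -0.30, among genes with -0.60. UQCR11 and COA1 thus moved about as far as their surroundings, and COX7B and CYCS less far.

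With the neighbour median subtracted as a fixed value without error, 25 of the 34 (73.5%) stayed called in the same direction, beside 77.5% of those 6331 genes. COX7B and CYCS were called the other way, with 0.33 (limma adjusted p = 0.00102) and 0.30 (adjusted p = 0.0025), and COX6A1 read -0.056 (adjusted p = 0.269). UQCR11, UQCRC2, SURF1, COA1, COX4I1 and COX7A2L were no longer called (adjusted p of 0.592, 0.755, 0.408, 0.513, 0.0527 and 0.149). In turn 10 members not called before were called. Among them were UQCC4 (-0.32), COA7 (-0.19), COX5A (-0.13) and COX7C (0.21), and the rest lay in the low mode. COA5, UQCC1, BCS1L and COX7B2 stood far from their neighbours, with medians around them of -0.077, 0.077, 0.23 and 0.052. COX14, COA4 and PET117 lay among genes that were themselves higher, at 0.56, 0.41 and 0.35, and kept rises of 0.37, 0.47 and 0.47. What the neighbour medians contribute to each gene's change was not tested, and DNA copy number was not analysed here.

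**Figure D4:**
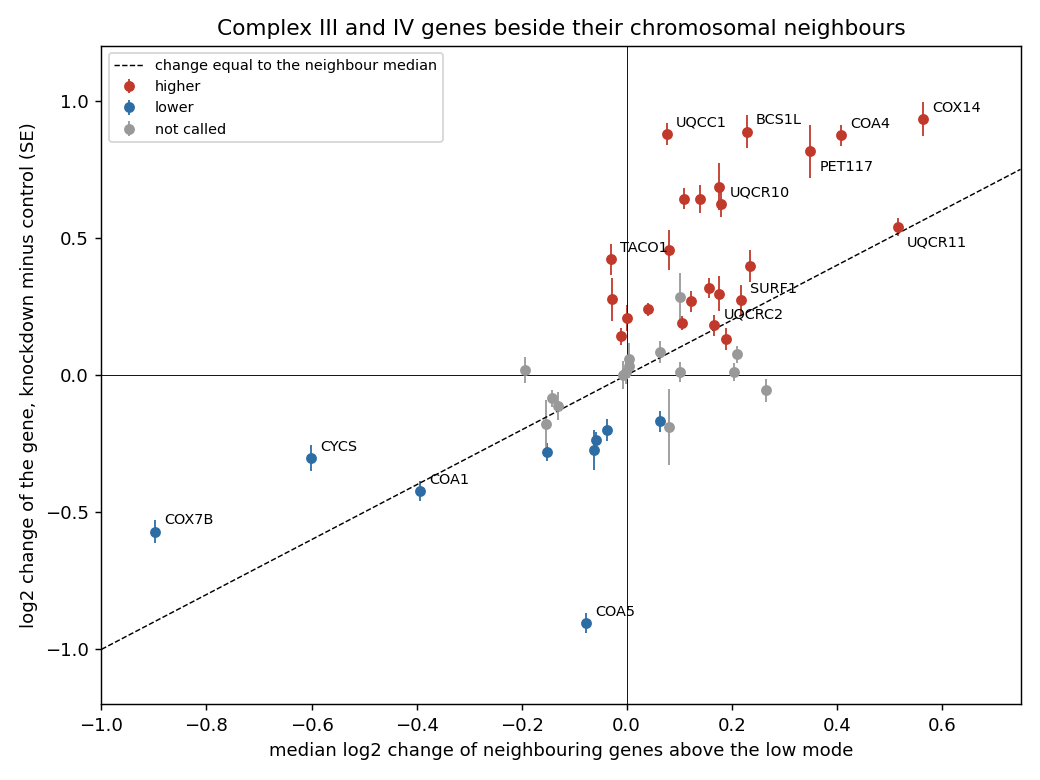
Log2 change (vertical axis, with SE) of 48 genes above the low mode against the median log2 change of their chromosomal neighbours (horizontal axis); COX7B2, which lies off the scale, and the mitochondrially encoded genes are left out. The dashed line marks a change equal to the neighbour median: UQCR11 and COA1 lie close to it, COX7B and CYCS above it, and COA5 far below.

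Other genes that serve these complexes were read from lists by function. Of 26 further subunits and assembly or translation factors, 17 were higher and 4 lower, with a median change of 0.27. Among the 23 above the low mode 73.9% were higher and 13.0% lower. The shares over all genes above the low mode, 36.4% higher and 25.4% lower, are the background for this and the next lists. TMEM177, which works with COX20 on COX2, rose by 0.95 (limma adjusted p = 8.54e-05) and the inner membrane scaffold PHB2 by 0.86 (adjusted p = 3.34e-05). CMC4 changed by -0.77 (adjusted p = 0.000231) and TIMM21, which links import to early complex IV assembly, by -0.70 (adjusted p = 0.00022). LRPPRC and SLIRP, which together stabilise mitochondrial messenger RNAs, rose by 0.40 and 0.37 (adjusted p = 0.000144 and 0.000783).

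Of 20 genes of heme and copper supply, 9 were higher and 7 lower (45.0% and 35.0%), both directions being common in that background. HCCS, which attaches heme to both cytochromes c and c1, rose by 0.87 (limma adjusted p = 5.01e-05) among neighbours with a median of 0.66, and the heme enzyme UROS rose by 0.59. The copper pump ATP7A changed by -0.92 among neighbours at -0.89, and TMEM14C, a heme-pathway transporter, by -0.77 among neighbours at -0.41. Of 13 genes of ubiquinone synthesis, whose product feeds complex III, 6 were higher and 0 lower. These were 50% and 0% of the 12 above the low mode. COQ9 rose by 0.60 (limma adjusted p = 0.000885) and COQ10B by 0.53 (adjusted p = 0.00357).

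Among 19 nuclear regulators of respiratory genes, 7 were higher and 5 lower (38.9% and 27.8% of the 18 above the low mode), near the background. PPARGC1B, a coactivator of respiratory genes, rose by 0.78 (limma adjusted p = 0.000245), and the hypoxia factor HIF1A by 0.54 (adjusted p = 0.000559). PPARGC1A, on the same list, changed by -0.38 (limma adjusted p = 0.0412). RBPJ, the DNA-binding factor of Notch signalling, changed by -1.10 (adjusted p = 0.000119). GABPA, whose letters are marked in the COX6B1 and COA1 promoters above, changed by -0.72 (adjusted p = 0.00446). It lay among neighbours with a median of -0.34. The GABPA partner GABPB1 rose by 0.52 (adjusted p = 0.000104), among neighbours at -0.012. NRF1, whose letters are marked in the UQCC1 promoter, changed by 0.16 (adjusted p = 0.108). YY1, whose letters were also counted, rose by 0.24 (limma adjusted p = 0.0385).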

How the data were processed

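The authors deposited log2 expression values per probe set, the scale being read from their range and shape; per the submitters' processing notes Partek was used (no version given), and the summary method is not given in the sources used here. Arrays took biotinylated RNA made from 250 ng of total RNA, per the labels' protocols. Of 54675 probe sets, 62 were array controls, 41091 carried 1 symbol in the platform annotation of 2016 and 1801 several, which were not used. The probe set with the highest mean stood for each gene, with no filter on dim probe sets. Groups were compared over 19775 genes with limma 3.58.1 in R 4.3.3 (lmFit and eBayes, two-sided, no covariates), and dimmer probe sets with the same fit over 54613 probe sets. The low mode ends at the lowest density of gene means, set after seeing the data. The fit was tested on simulated data. Same-numbered arrays did not deviate together (correlations of -0.24, -0.16 and 0.047 across genes), and arrays were compared unpaired. These correlations cannot show whether same-numbered arrays were processed together. Every called member is named, the 10 largest increases and 10 largest decreases array by array, and lists give up to 2 examples each way. LRPPRC, SLIRP, GABPB1, NRF1, YY1, PPARGC1A and further members given array by array were picked after their values were seen. So were the 4 promoters printed, of 7 taken by role, direction and motif with no other gene in the window. The members and lists were chosen with earlier results of these data known. Alternatives tried are given at the end. The number of arrays limits the precision.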

Additional observations from a re-analysis of the deposited data

How the results depend on the processing

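Alternatives covered scaling, a filter on dim genes, the choice of probe set, the variance prior, array weights, a stricter threshold, neighbour removal, the replicate number as a block and each array left out. Over 16 such settings, 18 of the 34 called genes kept their direction and call wherever they could be fitted. The count of lower members moved from 10 to 23 with arrays centred on their medians, and that over all genes from 2749 to 9588. Leaving out single arrays gave 20 to 24 higher and 8 to 10 lower members. With the replicate number as a block, 20 were higher and 8 lower, and the labels do not say whether the numbers pair the arrays. The ATAD3A change of -0.49 ran from -0.37 (without knockdown replicate 2) to -0.77 (neighbour median removed), with -0.60 after quantile normalization or centring, and missed a threshold of 0.01. Changes turned sign without s_at and x_at probe sets for UQCC1 (-0.49), TACO1 (-0.021), COA1 (0.039) and COX4I1 (-0.11), because other probe sets then stood for these genes, for TACO1 one in the low mode. They turned sign with neighbour medians removed for COX6A1 (-0.056), COX7B (0.33) and CYCS (0.30), since more than their change was subtracted. Signal near the bottom of the scale limits COX7B2, COX17 and UQCC2, and signal near its top COX1 and COX2.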
